A study of Homo sapiens with 8 samples.

Results

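The hypoxia response and glycolysis genes comprised 40 genes, taken as a list of symbols that had to be present in both deposited count tables. All 40 were found among the 56638 symbols of the tables. By role they were 5 genes for subunits of the hypoxia-inducible factors (HIFs) and their prolyl hydroxylases, 24 genes of glycolysis (2 glucose transporters, 11 genes of upper glycolysis, 6 of lower glycolysis and 5 of pyruvate and lactate handling), and 11 other HIF targets. RNA-Seq was carried out on SCC25, a cell line derived from a squamous cell carcinoma of the tongue, in 8 libraries of 4 groups with 2 libraries each. ETS1, a transcription factor of the ETS family, was lowered in 2 ways. In the transient experiment, cells received an ETS1 siRNA pool (ETS1_siRNA) or control siRNA (siRNA_control). In the stable experiment, puromycin-selected lines carried an ETS1 hairpin, labelled shETS1_3 and called shETS1 here, or the control construct (shCON). All groups share the parental line, 1 ETS1 hairpin was used in these libraries, and no label names a low-oxygen treatment. The study's methods describe the siRNA samples as biological replicates. For the stable lines the sources used here do not say whether the libraries of a group came from separate cultures, so that p-values there measure the spread between these libraries, which may be technical.

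In the HIF pathway, an alpha subunit (HIF1A or EPAS1) pairs with ARNT on DNA and raises transcription of its targets. When oxygen is plentiful, prolyl hydroxylases such as EGLN1 and EGLN3 mark the alpha subunits for degradation, so that much of the control lies at the protein, which RNA-Seq does not measure. Classical targets include most enzymes that turn glucose into pyruvate and lactate, and also genes for acid balance, mitophagy, collagen hydroxylation and feedback. Squamous carcinoma cells often run glycolysis at a high rate.

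Calls were made with edgeR's quasi-likelihood test over all genes that passed a filter on low counts, at a threshold of 0.1 on the p-value after Benjamini-Hochberg adjustment. Total counts ran from 15954616 to 25953213 per library. Levels are in CPM, counts divided by the scaled library size. The experiments were scaled separately, so levels are compared within an experiment only. ETS1 itself fell in both knockdowns, with a log2 fold change of -4.13 after siRNA (SE 0.19, edgeR adjusted p = 0.00017) and -2.89 in shETS1 (SE 0.10, adjusted p = 3.8e-13). The 10 squamous epithelial markers examined were detected in every group. Their summed level was 17400 to 22300 CPM in siRNA_control and 25400 to 29600 CPM in ETS1_siRNA. It was 17100 CPM in shCON and 27600 to 27900 CPM in shETS1, where 5 of the 10 were called higher and 3 lower (80%, against 60.6% of all genes tested). Of 10 markers of other cell types, the stromal genes DCN and LUM rose in shETS1. DCN went from 63.9 and 71.7 CPM in shCON to 678 and 645 CPM in shETS1, and the summed level of the list went from 225 to 256 CPM up to 1930 to 2040 CPM. CD3E and PECAM1, markers of T cells and endothelium, were at 0 in shCON, and PECAM1 and CDH5 were at 0 in shETS1. Structural RNAs took 5.61 to 6.63% of the counts in shCON and 9.64 to 12.3% in shETS1. The part of these differences in the shRNA results was not tested. In bulk RNA, fewer cells of a type and less RNA per cell cannot be told apart.

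HIFs bind the core ACGTG or GCGTG, and ETS factors bind around CCGGAA. Both strands of 300 bases around each gene's start (250 before, 50 after; GENCODE v44 on GRCh37) were searched for these letters. ACGTG was present at 22 of the 40 genes (55%), against 23.2% of 20163 promoters. GCGTG was present at 24 (60%, against 44.9%), and at least 1 of the HIF cores at 35 (87.5%, against 56.3%). CCGGAA was present at 7 (17.5%, against 22.6%). The 40 genes were chosen by name and include known HIF targets, so that these shares describe the choice of genes and are not a finding of these data. The background is the promoters of all protein-coding genes, not matched for expression or base content. The palindrome CACGTG counts as ACGTG on both strands. The 100 bases given for 8 genes, upstream of the start and on the strand of the gene, show how the cores lie in genes that differed in their response. Capitals mark the cores, either as spelled out here or as their reverse complements.
HK2 (chr2:75061154-75061253, + strand): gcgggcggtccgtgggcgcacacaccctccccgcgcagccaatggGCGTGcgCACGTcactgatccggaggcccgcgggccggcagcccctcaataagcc
LDHA (chr11:18416010-18416109, + strand): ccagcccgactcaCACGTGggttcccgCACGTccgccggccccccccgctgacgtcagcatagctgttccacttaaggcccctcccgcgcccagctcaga
ENO2 (chr12:7023626-7023725, + strand): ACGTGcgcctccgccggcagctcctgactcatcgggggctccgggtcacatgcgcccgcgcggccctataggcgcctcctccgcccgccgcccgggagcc
PGK1 (chrX:77359534-77359633, + strand): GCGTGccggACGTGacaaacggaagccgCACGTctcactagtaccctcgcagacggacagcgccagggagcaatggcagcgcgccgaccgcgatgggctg
BNIP3 (chr10:133795471-133795570, - strand): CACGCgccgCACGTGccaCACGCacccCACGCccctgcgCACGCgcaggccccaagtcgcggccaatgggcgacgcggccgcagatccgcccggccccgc
EGLN1 (chr1:231558034-231558133, - strand): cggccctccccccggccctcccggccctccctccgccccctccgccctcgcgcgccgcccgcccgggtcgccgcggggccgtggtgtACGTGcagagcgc
SLC16A1 (chr1:113498916-113499015, - strand): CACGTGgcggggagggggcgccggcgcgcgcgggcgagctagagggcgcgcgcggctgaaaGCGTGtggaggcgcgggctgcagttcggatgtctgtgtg
MXI1 (chr10:111967164-111967263, + strand): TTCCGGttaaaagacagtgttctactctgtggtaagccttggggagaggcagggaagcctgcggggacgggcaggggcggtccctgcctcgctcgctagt
The first 3 belong to glycolytic genes lower in shETS1, PGK1 and BNIP3 to genes higher in shETS1, and EGLN1 to a gene that changed in opposite directions. SLC16A1 was called after siRNA and MXI1, with the ETS core in place of a HIF core, had the largest rise in shETS1 among the members. ACGTG was present at 5 of the 11 genes higher in shETS1, at 10 of the 17 lower and at 5 of the 10 not called. A match of letters is a description of the window and does not show binding.

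After siRNA the members moved little. Of the 40 genes, 5 were called (12.5%, against 3.41% of the 14742 genes tested), 2 higher (background 1.13%) and 3 lower (background 2.27%). The lactate transporter SLC16A1 and the stress gene NDRG1 rose. HK2, the inducible hexokinase that traps glucose in the cell, fell with the muscle-type phosphofructokinase PFKM and the oxygen-sensing hydroxylase EGLN1. The median log2 fold change of the 40 was 0.16, with 28 above 0, against 0.00 over all genes tested. All 5 calls were lost when the siRNA_control replicate 1 library was left out, and some were lost without siRNA_control replicate 2 or ETS1_siRNA replicate 2. At an adjusted p under 0.05, only SLC16A1 remained. The split turned towards higher under other settings, in which more of all genes were called as well. Without a filter on low counts it was 7 higher and 3 lower, with 5.32% of all genes called. With all 8 libraries in one fit it was 8 higher and 4 lower, with 12.6% of all genes called.

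In shETS1 most members changed. Of the 38 genes tested, 28 were called (73.7%, against 60.6% of the 16481 genes tested), 11 higher (background 29.7%) and 17 lower (background 30.9%). SLC2A3 and CA9 had too few counts to be tested. The median was -0.16, against 0.00 over all genes, and -0.06 with offsets for transcript length and GC content. With library size alone as the scaling, the median of the members moved to -0.29, that of all genes to -0.12, and the split of called members became 8 higher and 21 lower, with KDM3A, NDRG1 and P4HA2 no longer called.

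**Figure D1:**
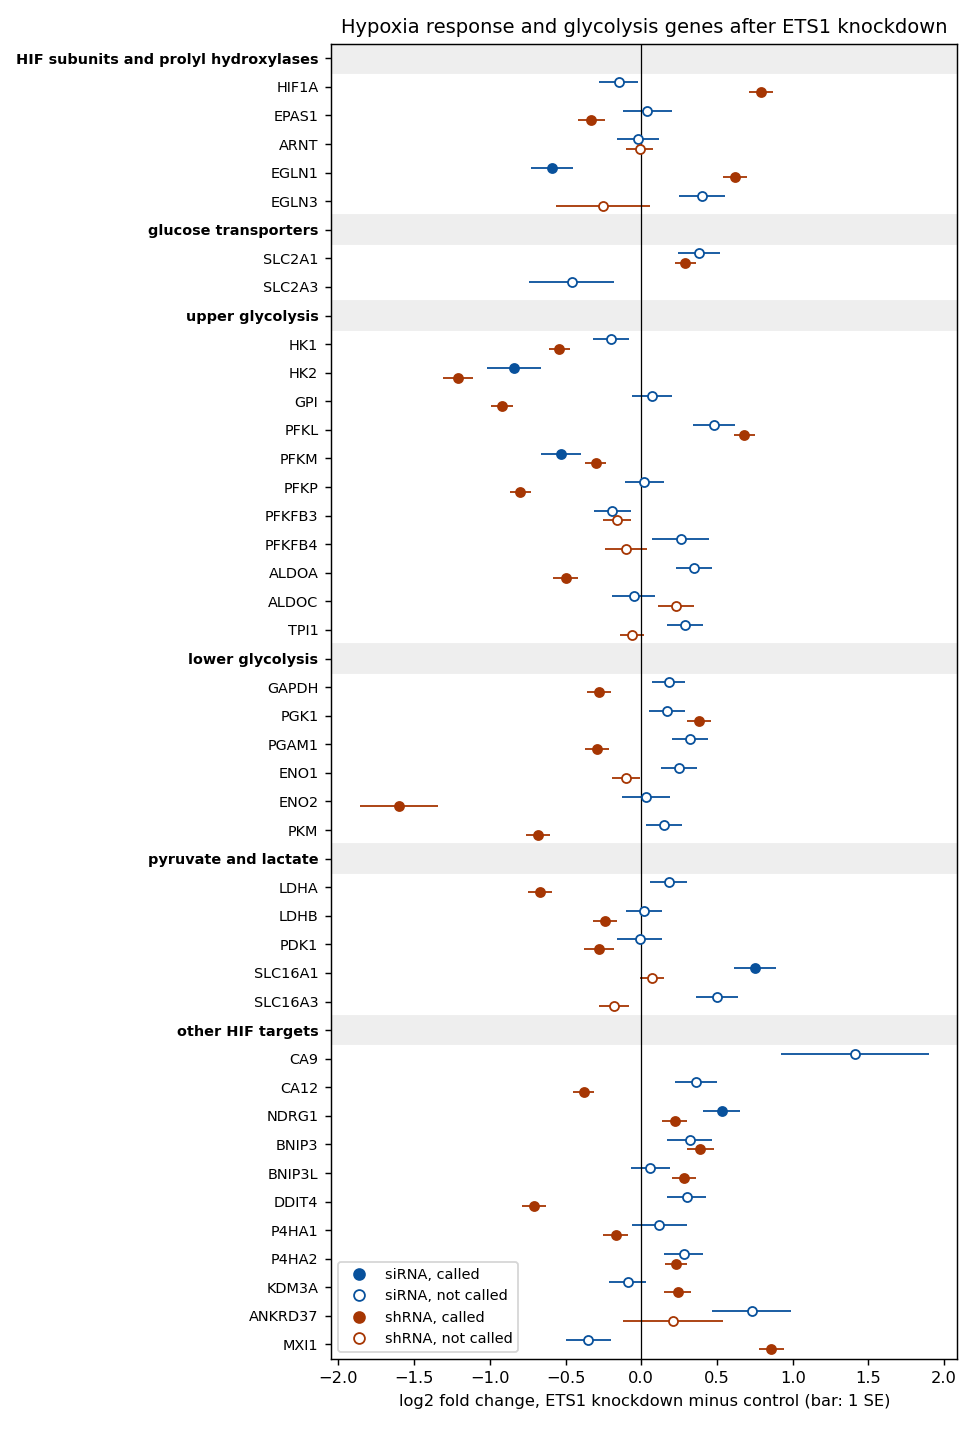
Log2 fold change of each member after ETS1 siRNA (blue) and in shETS1 (orange), each against its own control and grouped by role. Bars are 1 SE and filled points were called at an adjusted p under 0.1; the 5 filled blue points contrast with 28 filled orange ones, and most orange points of glycolysis lie left of 0 while those of other HIF targets lie mostly right.

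Among the HIF subunits and hydroxylases, HIF1A and EGLN1 rose in shETS1, EPAS1 fell, and ARNT and EGLN3 were not called. HIF1A (chr14:62162231-62214977, + strand), the main oxygen-regulated alpha subunit, was at 305 and 311 CPM in shCON and 531 and 537 CPM in shETS1. The rise was 1.73-fold (log2 0.79, SE 0.08, edgeR adjusted p = 1.1e-07), far outside the spread between libraries. In the siRNA experiment HIF1A was at 358 and 355 CPM in controls and 347 and 297 CPM after ETS1 siRNA, a log2 difference of -0.15 with an interval of 2 SE from -0.41 to 0.11.

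EPAS1 (chr2:46520806-46613836, + strand) encodes HIF-2 alpha. It was at 154 and 130 CPM in shCON and 106 and 119 CPM in shETS1 (log2 -0.33, SE 0.09, adjusted p = 0.0034). After siRNA the 2 knockdown libraries, at 257 and 192 CPM, lay on either side of the controls at 210 and 228 CPM. The EPAS1 call in shETS1 was lost without shCON replicate 1 (log2 -0.21) and with offsets for transcript length and GC content (log2 -0.12).

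ARNT, the shared beta subunit, stayed within a narrow range. The siRNA controls held 47.5 and 45.6 CPM and the ETS1 siRNA libraries 51.8 and 40.3 CPM, while shCON held 53.7 and 49.3 CPM and shETS1 47.9 and 54.5 CPM. Its log2 difference in shETS1 was -0.01, with an interval from -0.18 to 0.16, so that a change beyond that range was not seen.

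EGLN1 (chr1:231499497-231558033, - strand), the main oxygen sensor of the pathway, moved in opposite directions. Its levels were 39.2 CPM in both siRNA controls and 28.5 and 23.5 CPM after ETS1 siRNA, a fall of 1.51-fold (log2 -0.59, SE 0.14, adjusted p = 0.093). In the stable experiment they were 46.9 and 48.2 CPM in shCON and 70.8 and 75.0 CPM in shETS1, a rise of 1.53-fold (log2 0.62, SE 0.08, adjusted p = 2.9e-06). The groups did not overlap in either experiment. The EGLN1 call after siRNA was lost with the replicate number as a block (edgeR adjusted p = 0.24) and at an adjusted p under 0.05. It was also lost without siRNA_control replicate 1 or 2 (log2 -0.59 in each) or ETS1_siRNA replicate 2 (log2 -0.46). EGLN3, a hydroxylase that is itself a HIF target, was at 11.4 and 11.3 CPM in siRNA controls and at 15.0 CPM in both knockdown libraries, which did not pass the test (log2 0.40, adjusted p = 0.22). In the stable lines it was low, at 1.15 and 1.66 CPM in shCON and 1.00 and 1.35 CPM in shETS1.

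SLC2A1, the basal glucose transporter GLUT1, rose modestly in shETS1. It was at 112 and 108 CPM in shCON and 137 and 131 CPM in shETS1 (log2 0.29, SE 0.07, adjusted p = 0.0027). After siRNA it went from 179 and 197 CPM to 262 and 227 CPM, and the difference of 0.38 did not pass the test (adjusted p = 0.20). SLC2A3, the high-affinity transporter GLUT3, had 6 and 10 counts in shCON and 1 and 0 counts in shETS1, and 57 counts fell on its pseudogenes in those 4 libraries against 17 on the gene.

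Of the 11 genes of upper glycolysis, from hexokinase to triose phosphate, 7 were called in shETS1 (63.6%, against 60.6% of all genes), 6 of them lower. HK2 (chr2:75061254-75120486, + strand) was lower in both knockdowns. Its levels were 96.4 and 99.7 CPM in siRNA controls and 65.0 and 44.5 CPM after ETS1 siRNA, 1.79-fold lower (log2 -0.84, SE 0.18, adjusted p = 0.074). In the stable experiment HK2 was at 76.4 and 67.3 CPM in shCON and 27.8 and 34.3 CPM in shETS1, 2.31-fold lower (log2 -1.21, SE 0.10, adjusted p = 1.8e-08). The groups were apart in both experiments.

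PFKM (chr12:48498922-48540187, + strand) was the other glycolytic gene lower in both. It was at 118 and 122 CPM in siRNA controls and 85.9 and 80.7 CPM after ETS1 siRNA (log2 -0.53, SE 0.13, adjusted p = 0.097), and at 106 and 108 CPM in shCON and 90.5 and 83.3 CPM in shETS1 (log2 -0.30, SE 0.07, adjusted p = 0.0024). PFKM overlaps 516 bases of SENP1 on the other strand, whose counts were 43.2% of those of PFKM, and the counting is not stated to use strand.

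GPI and PFKP fell in shETS1 only. GPI (chr19:34850385-34893318, + strand), which converts glucose 6-phosphate to fructose 6-phosphate, was at 317 and 314 CPM in shCON and 163 and 171 CPM in shETS1, 1.89-fold lower (log2 -0.92, SE 0.07, adjusted p = 1.2e-08). The siRNA libraries held 298 and 274 CPM of GPI in controls and 283 and 317 CPM after knockdown, which overlap. PFKP (chr10:3108525-3179910, + strand), the platelet-type phosphofructokinase, was at 134 and 131 CPM in shCON and 79.0 and 73.5 CPM in shETS1, 1.74-fold lower (log2 -0.80, SE 0.07, adjusted p = 8.2e-08). In the siRNA experiment PFKP was at 153 and 170 CPM in controls and 167 and 159 CPM after knockdown. The shRNA and siRNA effects differed for both genes by the test of the difference itself (GPI by -1.01 and PFKP by -0.83 on the log2 scale). PFKL, the liver-type phosphofructokinase, was higher in shETS1 (log2 0.68, SE 0.07). Its log2 difference of 0.48 after siRNA (SE 0.14, edgeR adjusted p = 0.13) did not pass the test, though DESeq2 called it. The remaining calls in shETS1 were HK1 and ALDOA at -0.54 and -0.50. ALDOC, TPI1 and the regulatory kinases PFKFB3 and PFKFB4 lay between -0.16 and 0.23 without a call.

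All 6 genes of lower glycolysis lay slightly above 0 after siRNA, from 0.03 to 0.32, and none was called in the edgeR fit of the siRNA libraries or by DESeq2, with 1 at an unadjusted p under 0.05. PGAM1 was called in the edgeR fit of all 8 libraries. In shETS1, 5 of 6 were called (83.3%, against 60.6%), 4 lower and 1 higher. ENO2 (chr12:7022909-7032861, + strand), the neuronal enolase, had the largest fall of the members tested. It was at 2.66 and 3.51 CPM in shCON and 1.05 and 0.991 CPM in shETS1, 3.03-fold lower (log2 -1.60, SE 0.26, adjusted p = 4.9e-05), on 67 and 91 against 24 and 25 counts. After siRNA it went from 12 and 10.6 CPM to 11.1 and 12.1 CPM. ENO1, the main enolase, made up 99.7 to 100% of the enolase level per kb in every library, so that ENO2 is a small part of the total.

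PKM (chr15:72491370-72524160, - strand), the pyruvate kinase that makes pyruvate and ATP, fell from 1830 and 1840 CPM in shCON to 1140 and 1160 CPM in shETS1 (log2 -0.68, SE 0.08, adjusted p = 2.5e-06). In siRNA libraries it was at 3410 and 3760 CPM in controls and 4040 and 3940 CPM after knockdown (log2 0.15, adjusted p = 0.51). PGK1 (chrX:77166236-77384792, + strand), which makes the other ATP of lower glycolysis, went the other way in shETS1. It rose from 517 and 563 CPM to 730 and 675 CPM (log2 0.38, SE 0.08, adjusted p = 0.00078), beside 719 and 677 CPM in siRNA controls and 736 and 833 CPM after ETS1 siRNA. GAPDH and PGAM1 fell in shETS1 at log2 fold changes of -0.28 and -0.29, and ENO1 was not called (log2 -0.10).

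In the pyruvate and lactate group, LDHA (chr11:18416107-18429972, + strand), the lactate dehydrogenase subunit that favours lactate, fell from 737 and 731 CPM in shCON to 430 and 490 CPM in shETS1, 1.6-fold (log2 -0.67, SE 0.08, adjusted p = 2.6e-06). After siRNA it was at 1830 and 2040 CPM against 1730 and 1680 CPM in controls, a difference of 0.18 with an interval from -0.05 to 0.41. LDHB, the other subunit, fell less in shETS1, from 885 and 966 CPM to 809 and 758 CPM (log2 -0.24, SE 0.08, adjusted p = 0.022), and was at 746 and 786 CPM in siRNA controls and 722 and 826 CPM after knockdown. PDK1, a kinase that restrains pyruvate dehydrogenase, was at 23.1 and 20.4 CPM in shCON and 17.3 and 18.3 CPM in shETS1 (log2 -0.28, SE 0.10, adjusted p = 0.027). Its siRNA libraries held 22.1 and 19.0 CPM in controls and 20.3 and 20.4 CPM after knockdown. The PDK1 call in shETS1 was lost with DESeq2 (adjusted p = 0.13) and without shCON replicate 1 (log2 -0.20), and the LDHB call without shCON replicate 2 (log2 -0.17).

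SLC16A1 (chr1:113454469-113500215, - strand), the lactate transporter MCT1, had the lowest adjusted p of the members after siRNA. It rose from 182 and 221 CPM in controls to 334 and 344 CPM, 1.68-fold (log2 0.75, SE 0.14, adjusted p = 0.046). In the stable lines it was at 597 and 635 CPM in shCON and 637 and 658 CPM in shETS1, a difference of 0.07 with an interval from -0.09 to 0.23. SLC16A3, the lactate exporter MCT4, was not called in either knockdown (log2 0.50 and -0.18), and it shares 482 bases with CSNK1D on the other strand, which held more counts than SLC16A3.

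Of the other HIF targets, 9 of 10 tested were called in shETS1 (90%, against 60.6%), 6 higher and 3 lower. MXI1 (chr10:111967363-112047123, + strand), a repressor that opposes MYC, was at 34.8 and 35.2 CPM in shCON and 61.2 and 65.7 CPM in shETS1, 1.81-fold higher (log2 0.86, SE 0.08, adjusted p = 9.1e-08). In the siRNA experiment MXI1 was at 15.2 and 15.5 CPM in controls and 12.8 and 11.3 CPM after knockdown, which did not pass the test (log2 -0.35, adjusted p = 0.28). DDIT4 (chr10:74033678-74035794, + strand), an inhibitor of mTORC1 signalling, fell from 72.8 and 73.6 CPM in shCON to 47.7 and 41.9 CPM in shETS1 (log2 -0.71, SE 0.08, adjusted p = 1.2e-06). Its siRNA libraries were at 116 and 124 CPM in controls and 154 and 141 CPM after knockdown.

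BNIP3 (chr10:133781188-133795471, - strand), a mitophagy receptor, went from 28.2 and 31.7 CPM in shCON to 38.9 and 39.5 CPM in shETS1 (log2 0.39, SE 0.09, adjusted p = 0.0013), beside 124 and 104 CPM in siRNA controls and 131 and 155 CPM after knockdown. A BNIP3 pseudogene held 877 counts in the stable experiment, 25.7% of those of BNIP3, and 1 count in the siRNA experiment. NDRG1 was the member called higher in both knockdowns. It was at 930 and 1000 CPM in siRNA controls and 1490 and 1310 CPM after ETS1 siRNA (log2 0.53, SE 0.12, adjusted p = 0.093), and at 477 and 471 CPM in shCON and 544 and 564 CPM in shETS1 (log2 0.22, SE 0.08, adjusted p = 0.019). The NDRG1 call in shETS1 was also lost when either shCON library was left out.

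The other calls in shETS1 were smaller. The collagen prolyl hydroxylase P4HA2, the histone demethylase KDM3A and the mitophagy receptor BNIP3L rose by 0.23 to 0.28, and P4HA1 and the carbonic anhydrase CA12 changed by -0.17 and -0.38. The P4HA1 call was lost with DESeq2, at an adjusted p under 0.05 and without shCON replicate 2 or shETS1 replicate 1, among other settings, the KDM3A call without shCON replicate 2 or shETS1 replicate 2, the P4HA2 call without shCON replicate 1, and the BNIP3L call without shCON replicate 1 and with length and GC offsets. ANKRD37 was not called (log2 0.21), on 24 to 39 counts per library, and it shares 909 bases with UFSP2 on the other strand, which held more counts. CA9, the carbonic anhydrase often used as a hypoxia marker, had 4 counts in each shCON library and 0 in each shETS1 library, which is below what this depth can compare. In the siRNA experiment CA9 had 7 and 8 counts in controls and 13 and 30 counts after knockdown. CA9 shares 571 bases with ARHGEF39 on the other strand, which held more counts than CA9.

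**Figure D2:**
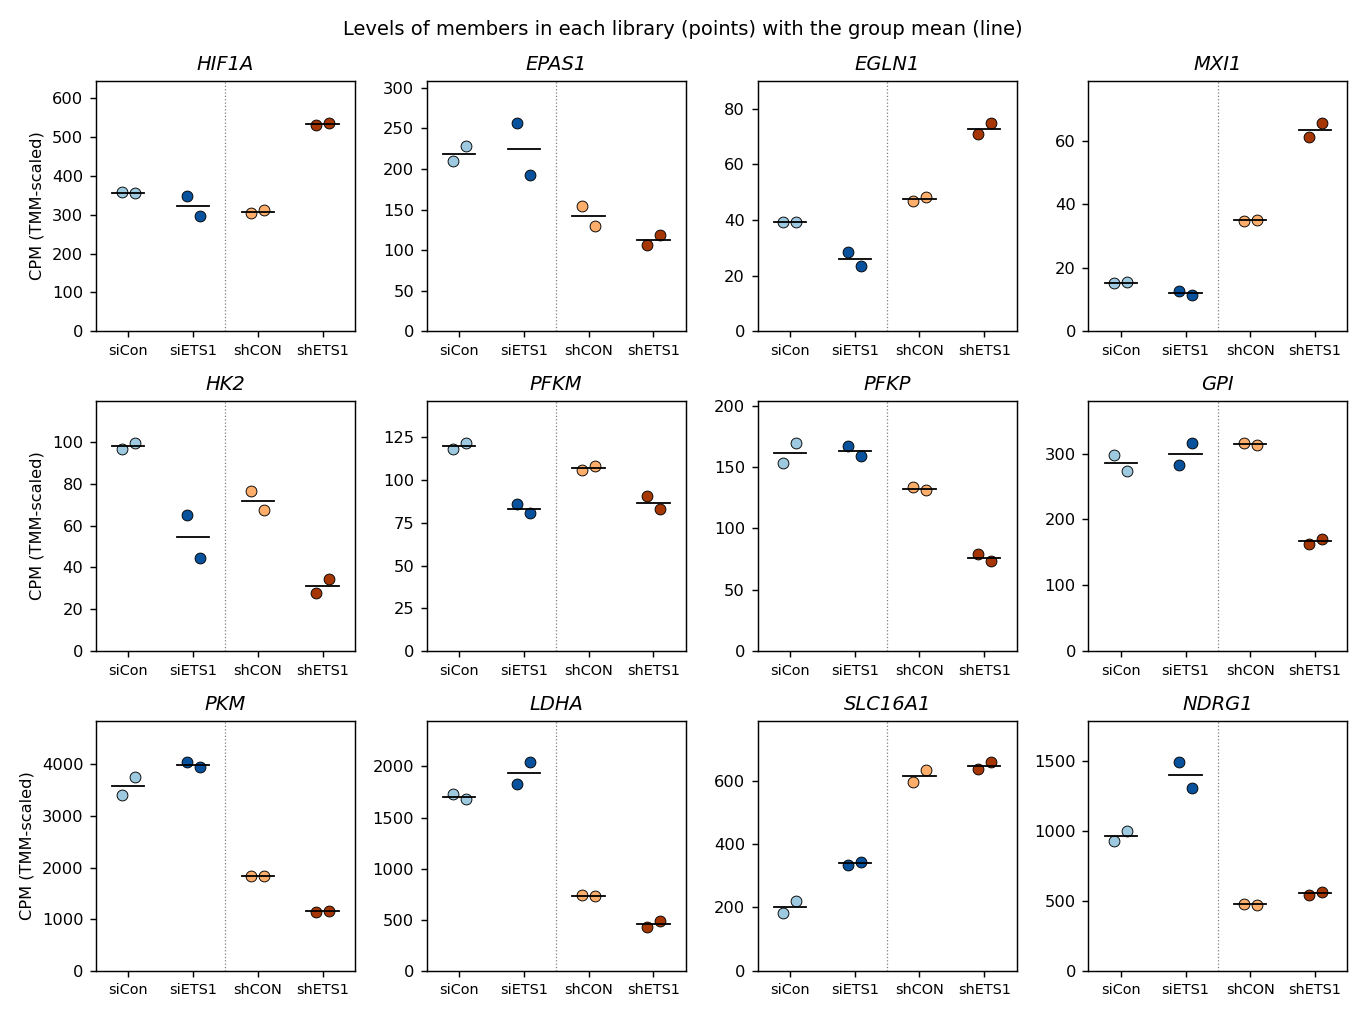
CPM of 12 members in each library (points) with the group mean (line), axes from 0, and a dotted line between the experiments. HK2 and PFKM were lower after knockdown in both experiments and NDRG1 higher in both, EGLN1 changed in opposite directions, and GPI, PFKP, PKM and LDHA were lower in shETS1 only among the called changes.

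The rule that defined the genes sets glycolysis against the other HIF targets. In shETS1 the 23 glycolysis genes tested had a median log2 fold change of -0.28, with 3 higher and 13 lower, whereas the 10 other HIF targets had a median of 0.23, with 6 higher and 3 lower. The difference of the medians was -0.51. After siRNA the medians were 0.16 and 0.30, a difference of -0.13, which became -0.26 with length and GC offsets and -0.25 with means in place of medians. Within each library, the mean log2 CPM of the glycolysis genes exceeded that of the other targets by 1.77 and 1.75 in shCON and by 1.34 and 1.36 in shETS1. The corresponding values were 1.74 and 1.81 in siRNA controls and 1.71 and 1.64 after ETS1 siRNA. The drop in shETS1 was larger than the gap between libraries of a group. These values describe the chosen genes and carry no test, and a difference within a library does not depend, apart from the pseudocount, on how the libraries were scaled. The difference in shETS1 was -0.44 and -0.43 under the same alternatives. With library size alone the other HIF targets had a median of 0.10, with 3 higher and 3 lower. Of all genes tested in shETS1, 29.7% were called higher and 30.9% lower in the main fit. A further list of 29 hypoxia targets outside the chosen genes had a median of -0.05 in shETS1, with 9 higher and 10 lower. The positive median thus describes the 10 chosen targets and was not seen in that further list. Likewise, 16 glycolysis isozymes outside the chosen genes had a median of 0.09 in shETS1, so that the negative median describes the 23 chosen glycolysis genes. Together the glycolysis genes took 1.32 and 1.34% of the counts in shCON and 1.02 and 1.01% in shETS1, against 1.76 and 1.82% in siRNA controls and 1.97 and 2.09% after ETS1 siRNA. These are shares of all counts, including the structural RNAs, which took a larger share in shETS1 than in shCON.

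**Figure D3:**
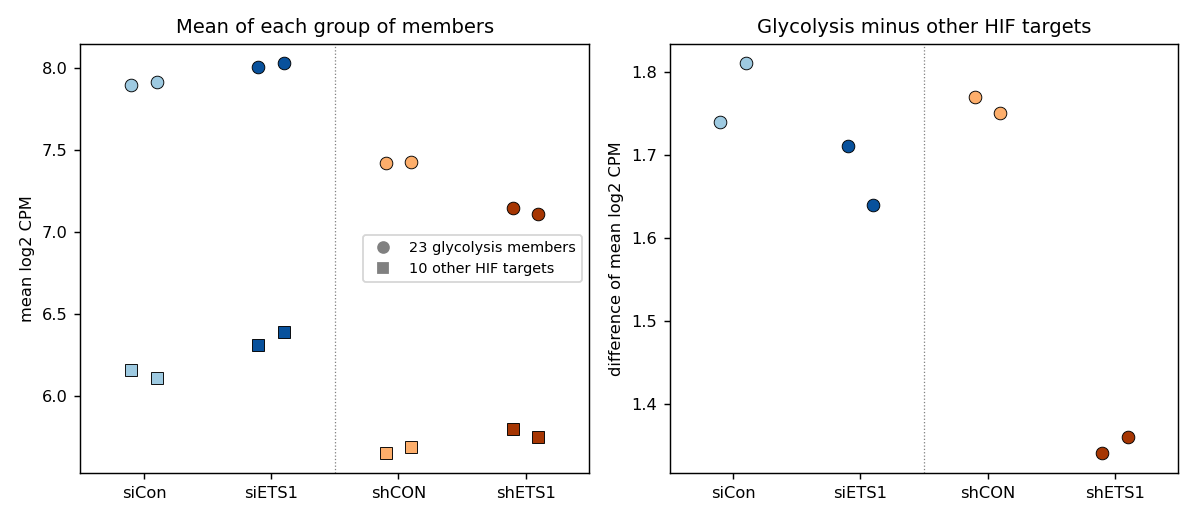
Left, mean log2 CPM of 23 glycolysis genes (circles) and 10 other HIF targets (squares) in each library; right, their difference, on an axis that does not start at 0. In shETS1 the circles were lower and the squares higher than in shCON, and the difference went from 1.75 to 1.77 down to 1.34 to 1.36.

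The isozymes of some steps moved unequally. Levels per kb of transcript were summed over the isozymes of a step, and each gene's share of the sum was taken in each library. Among the phosphofructokinases, PFKP held 46.1 and 44.8% of the level per kb in shCON and 29.5 and 29.4% in shETS1, while the share of PFKL went from 22.9 and 23.7% to 41.8 and 42.4%. In the siRNA experiment PFKP kept 46.6 to 47.6%, the share of PFKL went from 22.8 and 23.6% to 32.5 and 31.9%, and that of PFKM from 30.5 and 29.0% to 20.5% in both libraries. PFKL thus took a larger share in both knockdowns, beside a smaller share of PFKP in shETS1 and of PFKM after siRNA.

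HK2 was the minor hexokinase throughout. Its share of the HK1 and HK2 level per kb went from 16.4 and 16.7% in siRNA controls to 12.6 and 9.78% with ETS1 lowered, and from 13.6 and 12.8% in shCON to 8.08 and 9.34% in shETS1. LDHA made up 32.6 and 30.6% of the lactate dehydrogenase level per kb in shCON and 23.6 and 27.3% in shETS1, and 55.5 to 59.6% in the siRNA experiment. HIF1A made up 72.1 and 75.8% of the summed HIF1A and EPAS1 level in shCON and 86.7 and 85.5% in shETS1. The controls of the experiments thus differed in their isozymes before any knockdown: LDHA was the larger part of its pair in siRNA controls and the smaller part in shCON.

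**Figure D4:**
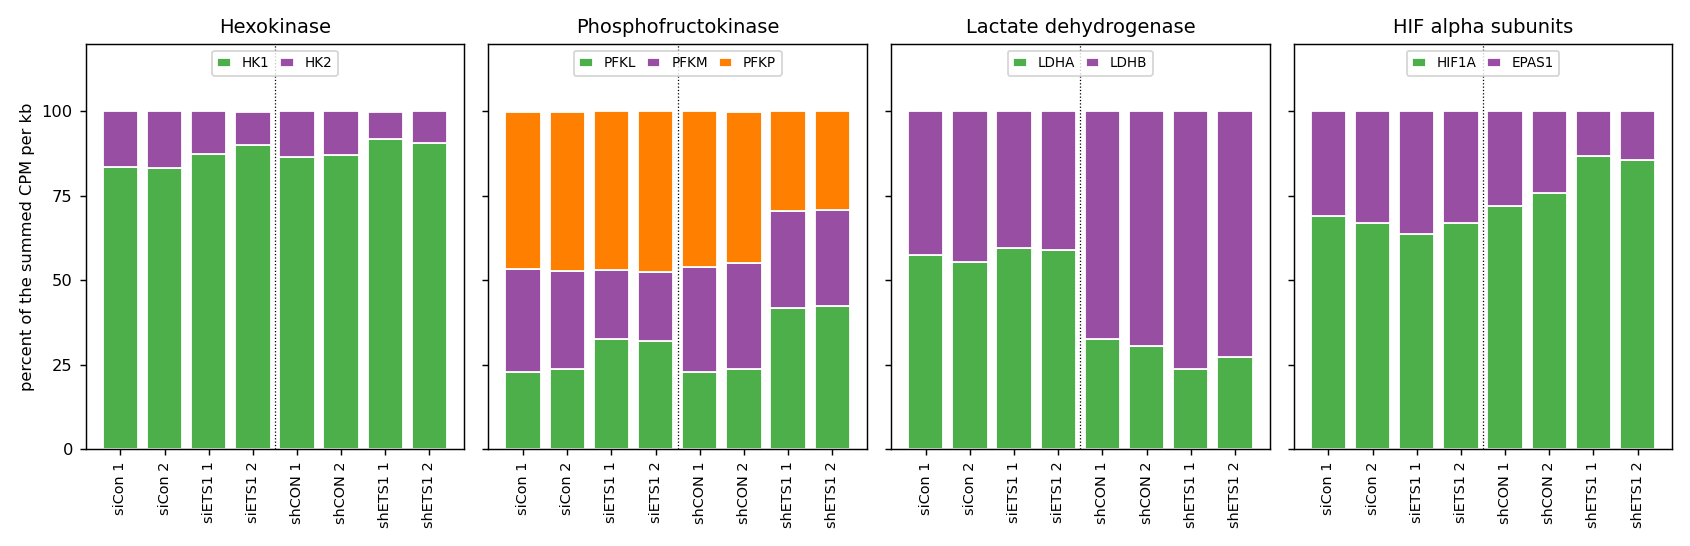
Share of each isozyme in the summed CPM per kb of its family in each of the 8 libraries, on an axis from 0 to 100% of the sum. The PFKL share was larger in both knockdowns than in their controls, and the HIF1A share was larger in shETS1 than in shCON.

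The knockdowns were compared directly by testing, in all 8 libraries, whether the shRNA effect differed from the siRNA effect. Of the 40 genes, 20 differed (50%, against 34.8% of the 17190 genes tested), 3 with a higher shRNA effect (background 15.1%) and 17 with a lower one (background 19.7%). MXI1, EGLN1 and HIF1A had the higher shRNA effects, by 1.19 (SE 0.15), 1.19 (SE 0.15) and 0.92 (SE 0.14) on the log2 scale. The 3 lowest among genes with counts in every group were ENO2 at -1.65 (SE 0.27), DDIT4 at -1.02 (SE 0.14) and GPI at -1.01 (SE 0.14). Of the 17 lower ones, 14 were glycolysis genes, 1 of them SLC2A3, and glycolysis genes made up 24 of the 40. SLC2A3 and CA9 passed the filter on low counts only through the siRNA libraries. They were called on a group with 3 counts or fewer, and no size is given for them.

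By sign alone, with no limit on size, 15 of the 38 genes tested in both had the same sign and 23 opposite signs. Of these 23, 18 were above 0 after siRNA and below 0 in shETS1. Some of the siRNA changes counted were close to 0, such as PFKP and LDHB at 0.02. Among genes called in both knockdowns, 1 was higher in both, 2 were lower in both, and 1, EGLN1, had opposite signs. Signs were not counted over all genes, so these numbers have no background beside them. SLC16A1 differed between the knockdowns by -0.70 (SE 0.15), while the differences for HK2 and PFKM were -0.38 (interval -0.86 to 0.09) and 0.21 (interval -0.05 to 0.47), which did not pass the test. With length and GC offsets the called differences were 6 higher and 18 lower, and that of PFKM was among them. The way ETS1 was lowered, its duration and other differences between the experiments cannot be told apart in this comparison. The calls of ENO1, HK1 and TPI1 were lost with length and GC offsets, at an adjusted p under 0.05 and without shCON replicate 1, among other settings.

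**Figure D5:**
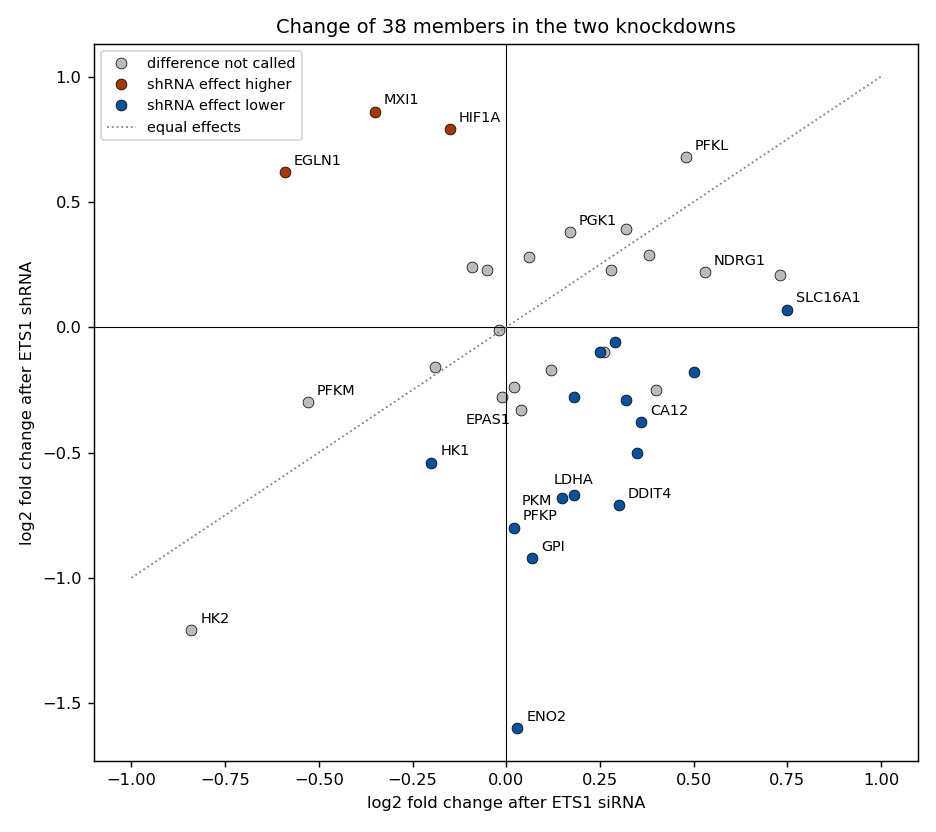
Log2 fold change of the 38 members tested in both knockdowns, after siRNA (horizontal) and in shETS1 (vertical), with a dotted line of equal effects. Colour marks a called difference; MXI1, EGLN1 and HIF1A lie above the line, and ENO2, GPI, DDIT4, PFKP, PKM and LDHA below it, while HK2 and PFKM lie in the lower left.

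Other genes of the pathway, in lists that do not overlap with the 40, were called in shETS1 at shares of 50 to 77.8%, around the 60.6% of all genes. Among 29 other hypoxia targets tested, 9 were higher and 10 lower (65.5% called), with a median of -0.05. The vasodilator peptide ADM rose by 2.79 (SE 0.08) on the log2 scale and the ephrin EFNA1 by 1.03 (SE 0.08). Among those that fell, the log2 fold change was -2.59 (SE 0.08) for the angiogenic factor VEGFA, -2.08 (SE 0.13) for the hormone STC2, -1.67 (SE 0.54) for the lipoprotein receptor VLDLR and -1.35 (SE 0.14) for ANGPTL4. The largest changes of HIF targets in shETS1 were thus outside glycolysis and had both signs. Of 10 other regulators of the HIF pathway, 3 were higher and 2 lower (50% called), with CITED2, a competitor of HIF for its coactivator, at 0.98 (SE 0.09).

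Of 16 other glycolysis isozymes tested in shETS1, 5 were higher and 5 lower (62.5% called), with a median of 0.09. The hexokinase-domain gene HKDC1 fell by 1.81 (SE 0.13), and LDHD, a D-lactate dehydrogenase, rose by 1.62 (SE 0.34). PDK4 was also higher, on too few shCON counts for a size to be given. In the pentose phosphate pathway, 3 of 8 were higher and 3 lower (75% called), the largest being PGD at -0.71 (SE 0.08). Of 27 genes of pyruvate dehydrogenase and the citrate cycle, 8 were higher and 13 lower (77.8% called), with a median of -0.16, and SDHC and OGDH had the largest falls, at -1.10 (SE 0.12) and -1.05 (SE 0.07). After siRNA, 2 of 30 other hypoxia targets and 1 of 15 other glycolysis isozymes were called (6.67% each, against 3.41% of all genes), and none in the remaining lists. They were ZNF395 at 0.66 (SE 0.14), VEGFA at -0.51 (SE 0.13) and the monocarboxylate transporter SLC16A7 at -2.19 (SE 0.42). None passed an edgeR adjusted p of 0.05 (0.066 for ZNF395, 0.053 for SLC16A7 and close to the threshold of 0.1 for VEGFA).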

How the data were processed

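Gene-level RNA-Seq counts of 8 libraries were used as deposited by the authors, in 2 tables of raw counts per gene symbol, 1 per experiment. Per the paper's methods and the submitters' processing notes, single-end TruSeq reads were aligned to GRCh37 with TopHat2 2.1.1 on Bowtie2 2.2.6 and counted over Ensembl genes with featureCounts 1.5.0. Whether strand or multi-mapping reads were used is not given in the sources used here. The members and lists were chosen with earlier results of these data known.

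Each experiment was fitted by itself in edgeR 4.0.16 (R 4.3.3; TMM scaling, filterByExpr, quasi-likelihood F-test, two-sided), with Benjamini-Hochberg adjustment over all genes tested and the study's threshold of 0.1. The difference of the effects was tested in 1 fit of all 8 libraries. An SE is the absolute log2 fold change divided by the square root of F, and an interval is 2 SE either side. Levels are CPM on TMM-scaled library sizes. Mean log2 CPM per library used a pseudocount of 0.5. Levels per kb use the canonical transcript of GENCODE v44 mapped to GRCh37. The libraries of a group were distinct, since their chi-square divided by its degrees of freedom ran from 6.23 to 23.2 over genes.

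Values in every library are given for the HIF subunits and hydroxylases, the members called after siRNA, the 3 largest called changes in shETS1 of each other role and the 3 largest called differences in each direction. Genes of the other pathway lists are named where called with at least a 2-fold change or as the largest called change of their list, except for 1 gene that is not reported here. The ZNF395 and VEGFA changes after siRNA, SLC2A3, CA9, ANKRD37 and the smaller changes named by log2 fold change fall outside that rule for values. Alternatives were another scaling, other filters, DESeq2 1.42.0, the replicate number as a block, 1 fit of all libraries, a stricter threshold, and leaving out each library. Added after seeing the data were offsets for transcript length and GC content, by loess, and a block with crossed replicate numbers. The edgeR script was tested on simulated data. Precision depends on the spread between the 2 libraries of a group and on the library totals of 15954616 to 25953213 counts. The common dispersion in edgeR, a measure of that spread over genes, was 0.0192 in the siRNA and 0.00402 in the shRNA experiment. Low genes are the least certain.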

Additional observations from a re-analysis of the deposited data

Results flagged for a closer look

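For 18 members the shRNA effect differed from the siRNA effect by the edgeR test of the difference itself, at an adjusted p under 0.1. The difference, as shRNA effect minus siRNA effect on the log2 scale, was 1.19 for MXI1, 1.19 for EGLN1 and 0.92 for HIF1A. Among upper glycolysis genes it was -0.36 for HK1, -0.37 for TPI1, -0.83 for PFKP, -0.87 for ALDOA and -1.01 for GPI. In lower glycolysis it was -0.37 for ENO1, -0.48 for GAPDH, -0.62 for PGAM1, -0.85 for PKM and -1.65 for ENO2. For LDHA it was -0.87, and for the lactate transporters SLC16A3 and SLC16A1 it was -0.69 and -0.70. Among other HIF targets it was -0.76 for CA12 and -1.02 for DDIT4. For EGLN1 each effect was called by itself, with opposite signs, though the siRNA call was lost under several alternatives. For SLC16A1 the difference goes with a rise after siRNA and no call in shETS1. ENO2 rests on 24 and 25 counts in shETS1. SLC2A3 and CA9 were also called, with 3 counts or fewer in a group.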

How the results depend on the processing

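For the called effects of the 21 members with values in every library, none changed sign under an alternative. In 497 tests under an alternative the result was as before, and in 28 the adjusted p no longer passed. Most of these 28 losses were among the 5 calls after siRNA. Over all genes, 502 were called after siRNA, and 97 to 2166 under the alternatives set beforehand that kept every library. After siRNA, 5 members were called, against 10 without a filter on low counts, 12 with all 8 libraries in one fit and 1 at an adjusted p under 0.05. The share called over all genes was 3.41% in the main fit, against 5.32% without the filter, 12.6% in the fit of all libraries and 1.29% at the stricter threshold. Some or all of the 5 calls were lost without siRNA_control replicate 1, siRNA_control replicate 2 or ETS1_siRNA replicate 2, and no sign changed. The labels number replicates 1 and 2 in each group, but the deviations of same-numbered libraries correlated at -0.54 (siRNA) and -0.20 (shRNA), so that the numbers do not pair the libraries. With the replicate block, 0 members (97 genes) were called after siRNA, 27 in shETS1 and 17 for the difference. With the numbers crossed as the block, 15 members (3238 genes), 31 and 27 were called. That crossing was chosen from the same deviations that the block removes, so that a gain in calls was built in. In shETS1, 23 to 28 members were called with a library left out, and 16 to 22 for the difference.

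Median log2 fold changes after siRNA were as follows. Upper glycolysis was at 0.00 with library size alone, with or without structural RNAs, and at -0.09 with length and GC offsets. With these offsets lower glycolysis was at 0.10, pyruvate and lactate at 0.30, and glycolysis minus other HIF targets at -0.26, against -0.25 with means. Without a library, the HIF group ran from -0.20 to 0.15, upper glycolysis from -0.06 to 0.02, lower glycolysis from 0.15 to 0.24, pyruvate and lactate from 0.10 to 0.26, other HIF targets from 0.21 to 0.33 and all members from 0.11 to 0.23.

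In shETS1, library size alone gave -0.13 for the HIF group, -0.43 for upper and -0.41 for lower glycolysis, -0.37 for pyruvate and lactate, 0.10 for other HIF targets and -0.29 for all members. Without structural RNAs as well, other HIF targets were at 0.18 and all members at -0.21. Length and GC offsets gave -0.22 for upper glycolysis, 0.18 for other HIF targets, -0.06 for all members and -0.44 for glycolysis minus other HIF targets, which was -0.43 with means. One fit of all libraries gave 0.21 for other HIF targets and -0.19 for all members. Without a library, the HIF group ran from -0.11 to 0.08, upper glycolysis from -0.36 to -0.24, other HIF targets from 0.21 to 0.24, all members from -0.18 to -0.12 and the difference from -0.52 to -0.47. The cause of these shifts was not tested. Depth limits SLC2A3, CA9, ENO2 and ANKRD37.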
